A study of Mus musculus with 6 samples.

Results

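The mouse Serpina3 genes are copies of a serpin gene, arranged side by side on chromosome 12. Serpins are protease inhibitors that offer a protease a bait loop and trap the enzyme once it cuts. The copies correspond to human SERPINA3, which encodes alpha-1-antichymotrypsin, an acute-phase protein made in liver and in reactive astrocytes. Mouse Serpina3n is a secreted inhibitor and a widely used marker of reactive astrocytes, and mouse Serpina3g (also called Spi2A) is an intracellular inhibitor known from leukocytes, where interferon gamma and NF-kB signalling raise it. Members were taken as every gene symbol beginning with Serpina3. The deposited table of 3733 genes held 4 of them: Serpina3f, Serpina3g, Serpina3i and Serpina3n, with gene identifiers 238393, 20715, 628900 and 20716. RefSeq lists 14 Serpina3 symbols in this cluster, of which 10 are protein-coding and 4 are pseudogenes. The other 10 are not analysed here. Of the 4 listed copies, Serpina3f, Serpina3g and Serpina3i are close neighbours, and Serpina3n is the outermost gene of the cluster in this annotation.

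RNA from mouse hippocampus was sequenced in 6 libraries, 2 for each of 3 groups. PIA stands for postnatal immune activation. Animals of the PIA+IL-27 group had this activation together with IL-27, those of the PIA group had the activation without IL-27, and the third group is labelled Control. In the design text these are an LPS group with rIL-27, an LPS group and a control group. LPS, a component of bacterial outer membranes, sets off inflammation through Toll-like receptor signalling, and IL-27 is a cytokine secreted by myeloid cells. The labels state no strain, sex, age, dose or litter and do not say that libraries come from separate animals. The p-values thus measure only the spread between these libraries, which may be technical. In the edgeR fit this spread was pooled over genes, so an SE or p-value does not follow the spread of a member's own libraries. Paired values of a group are given for library 1 and then library 2.

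The table was selected on these same libraries: all 3733 genes in it pass 0.05 for Q together with a change of 1 or more log2 units in some comparison of the authors. The family was also picked with the differences between these groups already known. Levels and fold changes of the members are therefore a description. Reads in the listed genes numbered 641672 to 1593441 per library, and these genes held 2.14 to 5.61% of its TPM. Markers of other tissue moved with the libraries. The normalized read counts of 4 Y-linked genes came to 1476 and 6.80 in PIA+IL-27, 541 and 594 in PIA, and 2.94 and 9.52 in Control, so a difference of PIA from Control cannot be told apart from this one. The 6 listed neocortical markers summed to 9048 in PIA+IL-27 1 and 5720 in PIA 2, against 2192 to 3201 in the other libraries. The 5 listed dentate granule cell markers, of a hippocampal neuron type, summed to 1268 and 2339 in PIA+IL-27, 1076 and 400.4 in PIA, and 893 and 2448 in Control. The 16 choroid plexus markers summed to 66370 in Control 2 and 692 to 12906 elsewhere. The 10 listed ependyma markers summed to 259 and 1409 in PIA+IL-27, 427 and 346 in PIA, and 945 and 1548 in Control. Each of the 10 was lower in both PIA libraries than in both Control libraries. A difference of PIA from Control cannot be told apart from this one either. The share of all listed genes that were lower in this way is not given here. In bulk tissue, fewer cells of a type and less RNA per cell cannot be told apart.

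The promoters of the 4 copies are shown because their upstream sequences differ at a short motif. They were chosen with the patterns over the libraries already known, and a link between motif and pattern was not tested. RefSeq (build GRCm38.p6) gives a window of 250 bases before to 50 after each gene start for all 4 members, all on the plus strand. They lie at chr12:104214294-104214593 for Serpina3f, chr12:104235897-104236196 for Serpina3g, chr12:104262872-104263171 for Serpina3i and chr12:104406458-104406757 for Serpina3n. Capitals mark matches to TTCNNNGAA, the gamma-activated site that STAT factors bind after interferon gamma.
Serpina3f: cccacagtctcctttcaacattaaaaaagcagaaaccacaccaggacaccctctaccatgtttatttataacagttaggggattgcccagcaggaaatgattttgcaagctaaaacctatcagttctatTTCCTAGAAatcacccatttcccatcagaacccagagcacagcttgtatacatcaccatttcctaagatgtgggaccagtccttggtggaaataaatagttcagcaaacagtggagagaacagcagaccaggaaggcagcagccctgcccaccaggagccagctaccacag
Serpina3g: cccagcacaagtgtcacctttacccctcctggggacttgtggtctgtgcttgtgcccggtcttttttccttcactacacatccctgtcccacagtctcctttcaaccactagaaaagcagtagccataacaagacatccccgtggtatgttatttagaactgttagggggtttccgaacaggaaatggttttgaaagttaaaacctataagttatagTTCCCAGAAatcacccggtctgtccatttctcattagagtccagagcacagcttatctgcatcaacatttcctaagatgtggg
Serpina3i: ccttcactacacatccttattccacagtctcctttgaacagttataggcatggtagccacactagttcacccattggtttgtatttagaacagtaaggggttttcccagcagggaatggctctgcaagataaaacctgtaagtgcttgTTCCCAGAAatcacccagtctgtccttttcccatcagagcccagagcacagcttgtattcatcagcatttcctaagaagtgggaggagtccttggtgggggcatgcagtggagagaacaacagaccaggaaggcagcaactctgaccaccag
Serpina3n: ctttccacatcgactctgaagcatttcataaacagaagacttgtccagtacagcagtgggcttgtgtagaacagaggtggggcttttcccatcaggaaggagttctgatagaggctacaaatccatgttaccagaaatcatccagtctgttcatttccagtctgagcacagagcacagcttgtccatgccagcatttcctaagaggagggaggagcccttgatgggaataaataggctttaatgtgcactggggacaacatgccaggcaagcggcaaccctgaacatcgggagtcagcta

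The gamma-activated site was found once each in the windows of Serpina3f, Serpina3g and Serpina3i, starting 121, 33 and 102 bases before the gene start. The window of Serpina3n held no match. Of 27025 RefSeq promoter windows of the same length, 8.47% held this motif. Aligned bases were 79.7 to 83.7% identical among the windows of Serpina3f, Serpina3g and Serpina3i, so their matches are not separate finds. Between Serpina3n and each of them identity was 69.5 to 72.8%. The stretch that aligned with the Serpina3g site is shown for all 4 genes, with the aligned 9 bases in capitals.
Serpina3f: tatcagttctatTTCCTAGAAatcaccc
Serpina3g: tataagttatagTTCCCAGAAatcaccc
Serpina3i: tgtaagtgcttgTTCCCAGAAatcaccc
Serpina3n: tacaaatccatgTTACCAGAAatcatcc
Counted from 1 at the 5′ end of the Serpina3g site, Serpina3f differed by C5T, which leaves the motif in place. Serpina3n differed by C3A, a position that the motif fixes, and Serpina3i did not differ. Both strands were searched for every motif. An NF-kB pattern, GGG then any 5 bases then CC, matched in all 4 genes and in 50.4% of all windows. A C/EBP pattern, TTNCNNAA, also matched in all 4 and in 40.7% of all windows, and overlapped the NF-kB match in Serpina3g. The core of the interferon-stimulated response element, GAAA then any 2 bases then GAAA, matched in none of the 4, against 3.49% of all windows. These matches describe the letters of the windows and do not show binding.

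**Figure D1:**
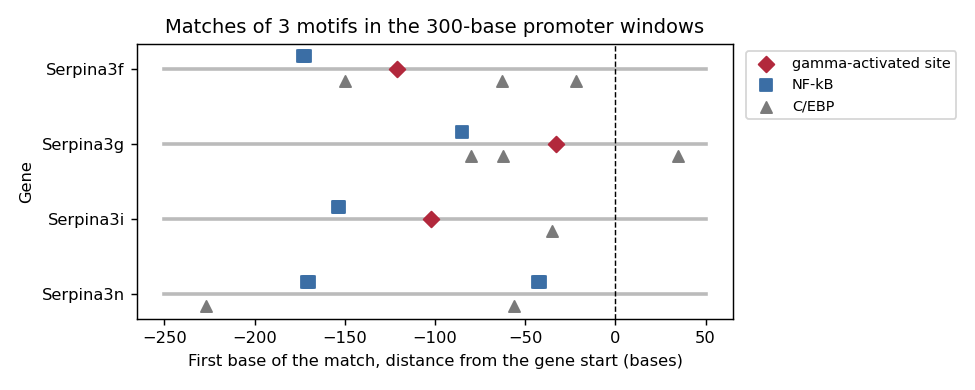
Each grey line is the promoter window of a Serpina3 gene, from 250 bases before to 50 after its start (dashed line). Symbols give the first base of each motif match, and the gamma-activated site (diamonds) is seen in Serpina3f, Serpina3g and Serpina3i, while the Serpina3n window holds NF-kB and C/EBP matches only.

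Serpina3f was the copy with the widest gap between groups. It had 6.26 and 7.77 normalized read counts in PIA+IL-27, 128 and 233 in PIA, and 17.6 and 2.86 in Control. Both PIA libraries lay above all other libraries, and the PIA+IL-27 libraries lay between the Control libraries. Of all listed genes, 17.2% had both PIA libraries above both Control libraries, and 16.5% had both PIA+IL-27 libraries below both PIA libraries. The share that met both at once, as Serpina3f, Serpina3g and Serpina3i did, was not counted. Per transcript length, its level averaged 0.410 ± 0.113 TPM in PIA+IL-27, 10.2 ± 4.0 TPM in PIA and 0.575 ± 0.544 TPM in Control (SD, n = 2 each). The order of the TPM levels was thus PIA first, with PIA+IL-27 and Control not separated by their spread. The fitted log2 fold change was 4.19 ± 1.12 in PIA against Control (SE) and -4.77 ± 1.16 in PIA+IL-27 against PIA; both share the PIA libraries. Without Control 1 the first of these was 5.92.

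Serpina3g, the Spi2A inhibitor, had nearly equal levels in the PIA libraries. It had 21.9 and 13.6 normalized read counts in PIA+IL-27, 308 and 328 in PIA, and 87.2 and 7.62 in Control. The PIA libraries were again the highest, and the Control libraries differed from each other by 11.4-fold, with both PIA+IL-27 libraries between them. Its level was 1.27 ± 0.262 TPM in PIA+IL-27, 20.6 ± 0.955 TPM in PIA and 3.19 ± 3.71 TPM in Control (SD, n = 2 each). The log2 fold change was 2.76 ± 0.995 in PIA against Control and -4.20 ± 1.07 in PIA+IL-27 against PIA. Without Control 1 the first was 5.36.

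Serpina3i had 35.5 and 15.5 normalized read counts in PIA+IL-27, 352 and 124 in PIA, and 115 and 12.4 in Control. The PIA libraries were the highest here too, but PIA 2 exceeded Control 1 by little. Its level was 2.06 ± 0.827 TPM in PIA+IL-27, 17.1 ± 8.78 TPM in PIA and 3.81 ± 3.23 TPM in Control (SD, n = 2 each). The log2 fold change was 1.91 ± 0.971 in PIA against Control and -3.25 ± 1.03 in PIA+IL-27 against PIA. Without Control 1 the first was 4.25, and without PIA 1 it was 0.97.

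Serpina3n, the astrocyte marker and the most abundant copy in 5 of the 6 libraries, did not follow its relatives. It had 223 and 460 normalized read counts in PIA+IL-27, 2535 and 200 in PIA, and 1226 and 638 in Control. PIA 1 was the highest library and PIA 2 the lowest, so the PIA libraries enclosed all the others. They differed by 12.7-fold, against 1.06-fold for Serpina3g in the same libraries. Its level was 21.1 ± 10.6 TPM in PIA+IL-27, 77.2 ± 93.9 TPM in PIA and 55.3 ± 19.1 TPM in Control (SD, n = 2 each), and the difference of PIA from Control was smaller than the spread. The log2 fold change was 0.55 ± 0.832 in PIA against Control and -2.0 ± 0.862 in PIA+IL-27 against PIA. Without PIA 1 these turned to -2.23 and 0.78.

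**Figure D2:**
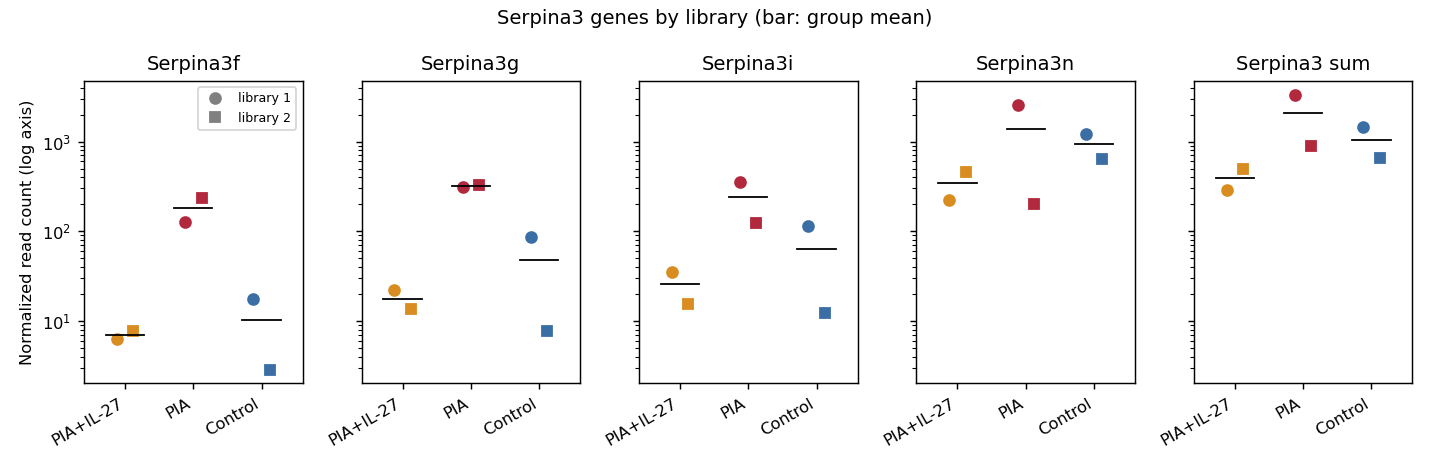
Normalized read count of each Serpina3 gene and of their sum (log axis), with a circle for library 1, a square for library 2 and a bar for the mean of the group. For Serpina3f, Serpina3g and Serpina3i both PIA libraries lie above all others, whereas for Serpina3n they are the highest and the lowest library.

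The sum of the family followed Serpina3n in most libraries. The 4 copies together had 287 and 497 normalized read counts in PIA+IL-27, 3323 and 886 in PIA, and 1446 and 661 in Control. The PIA+IL-27 libraries were the lowest of the 6, and PIA 2 lay between the Control libraries. Of all listed genes, 16.5% had both PIA+IL-27 libraries below both PIA libraries, and 7.5% had them below both Control libraries. The share that met both at once was not counted. The log2 fold change of the sum was 1.0 ± 0.827 in PIA against Control, -2.43 ± 0.864 in PIA+IL-27 against PIA and -1.43 ± 0.837 in PIA+IL-27 against Control. Without PIA 1 the first turned to -0.25 and the second was -1.18, and without Control 1 the third was -0.76.

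The make-up of the family differed most in PIA 2. Serpina3n made up 75.4 and 90.4% of the summed TPM in PIA+IL-27, 73.5 and 19.8% in PIA, and 84.3 and 94.9% in Control. In PIA 2 Serpina3g was the most abundant copy with 36.4%, followed by Serpina3f with 23.9%. The order in each of the other 5 libraries was Serpina3n, Serpina3i, Serpina3g and Serpina3f. These shares compare genes within a library, so they do not depend on the scaling between libraries.

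**Figure D3:**
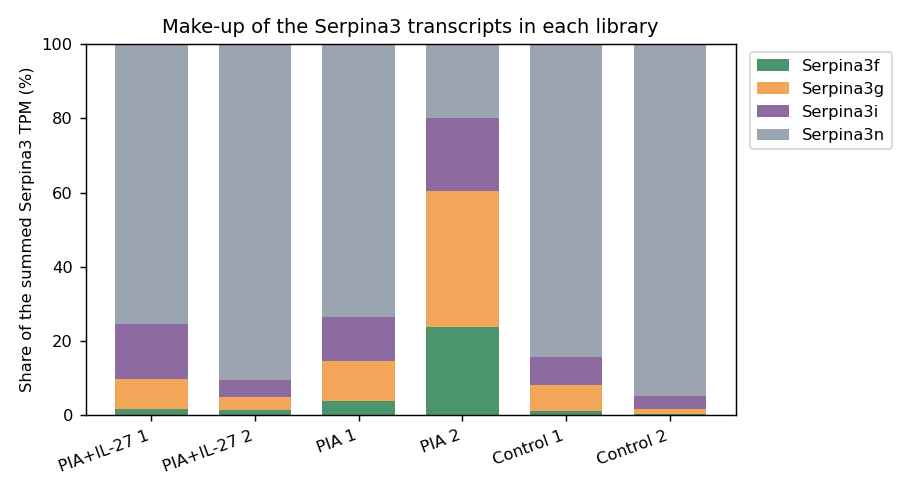
Stacked bars give the share of each Serpina3 gene in their summed TPM, for each library. Serpina3n takes at least 73.5% in every library except PIA 2, where it takes 19.8%.

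In PIA+IL-27 against Control, the groups overlapped for Serpina3f, Serpina3g and Serpina3i. The log2 fold changes were -0.57 ± 1.09 for Serpina3f, -1.44 ± 0.986 for Serpina3g and -1.34 ± 0.977 for Serpina3i, and they turned to 1.15, 1.16 and 1.0 without Control 1. Serpina3n was lower in both PIA+IL-27 libraries than in both Control libraries, as were 7.5% of all listed genes, with a log2 fold change of -1.45 ± 0.848.

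**Figure D4:**
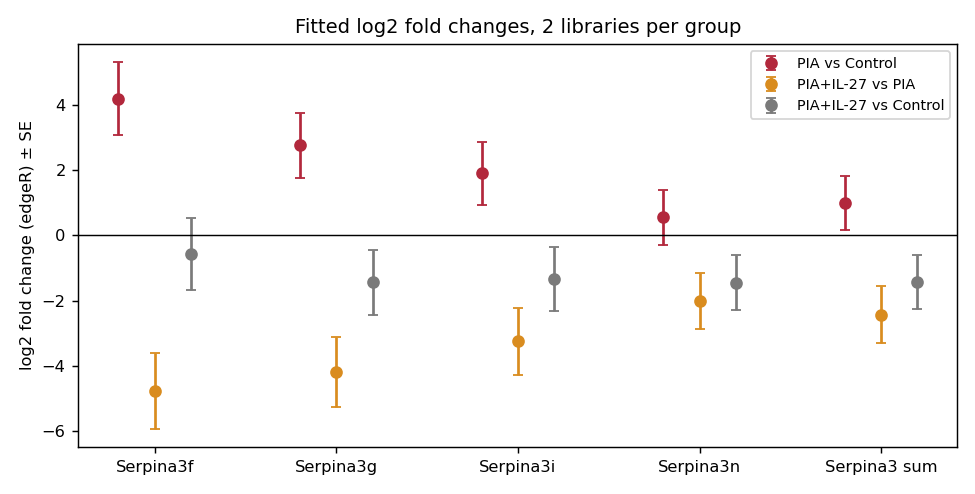
Fitted log2 fold change of each Serpina3 gene and of their sum, with bars for the SE (edgeR, 2 libraries per group). The SE rests on a spread pooled over genes, not on the member's own libraries. PIA against Control runs from 4.19 for Serpina3f down to 0.55 for Serpina3n, and PIA+IL-27 against PIA from -4.77 to -2.0 in the same order of genes; both comparisons share the PIA libraries.

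All 4 members passed the filter on low counts, which left 3216 genes. By edgeR's quasi-likelihood test with Benjamini-Hochberg adjustment, 0 of the 4 passed in PIA against Control, where 0.218% of the genes tested passed, 4 of these 7 genes being the Y-linked ones; 202 genes had an unadjusted p under 0.05, and DESeq2 called 2 genes and limma 6. In PIA+IL-27 against PIA, Serpina3f and Serpina3g passed, 2 of the 12 genes called lower, where 0.435% of the genes tested passed in either direction and 0.373% passed as lower. With each library left out in turn, the log2 fold change ran from -5.1 to -4.3 for Serpina3f and from -4.5 to -3.9 for Serpina3g. Those fits leave 1 library in a group, so no passing is read from them. With TMM factors neither passed (adjusted p = 0.257 for both, edgeR), at log2 fold changes of -6.02 for Serpina3f and -5.46 for Serpina3g. With a trend on GC content removed neither passed (0.587 for both, edgeR), at -5.11 and -4.08. Both passed in DESeq2 (adjusted p = 0.00269 and 0.0141) and in limma on log2(TPM + 1) (0.01 and 0.0234). In PIA+IL-27 against Control 0 of the 4 passed, where 0.311% did. Of these 10 genes called by edgeR, 4 were the Y-linked ones and 3 were choroid plexus markers. An unadjusted p under 0.05 was seen for 92 genes, and DESeq2 called 1 gene and limma 2. Since the family was picked for these differences, nothing is read from the counts. The authors' deposited table gives log2 fold changes in PIA over Control of 4.11 for Serpina3f, 2.69 for Serpina3g, 1.89 for Serpina3i and 0.56 for Serpina3n.

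The sequences of the copies limit how reads are assigned. Between the GENCODE transcripts of the members, identity was 87.4 to 89.7% among Serpina3f, Serpina3g and Serpina3i, and 80.4 to 82.2% between Serpina3n and each of them. Of the 50-base windows of a transcript, 12.1% in Serpina3f, 16% in Serpina3g, 15.4% in Serpina3i and 6.90% in Serpina3n occurred in another Serpina3 transcript, several of them from genes outside the table. For windows of 100 bases the shares were 3.96, 4.64, 2.33 and 0.204%, and for 150 bases no window was shared. The read length is not given in the sources used here. Read counts were not whole in 4 of the 6 libraries for Serpina3f, Serpina3g and Serpina3i and in 3 of 6 for Serpina3n. Values of single copies are uncertain to that extent, and the sum of the 4 removes only the sharing among them.

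The genes nearest to Serpina3f were taken over the 6 libraries. On log2 normalized read counts with 1 added, Pearson's r was 0.994 for the class I-like gene H2-M3, 0.991 for the peptide transporter subunit Tap2, 0.991 for complement component C2, 0.986 for Gm12250 and 0.978 for the myosin kinase gene Mylk2. Nearest to Serpina3g were the macrophage lectin Siglec1 (0.992), the class I loading factor Tapbp (0.988), the NADPH oxidase subunit Cyba (0.987), Gpsm3 (0.987) and the interferon-induced GTPase Gbp2 (0.985). These values rest on 6 libraries and on a choice among all tested genes, and the points share depth and scaling. C2 had 42.8 and 43.7 normalized read counts in PIA+IL-27, 208 and 227 in PIA, and 77.4 and 24.8 in Control, with both PIA libraries highest and both PIA+IL-27 libraries between the Control libraries, as for Serpina3f.

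Serpina3n had other neighbours, named after its values were seen. They were Gldn (0.979), the sphingosine phosphate receptor S1pr3 (0.972), Fbp1 (0.968), the myeloid receptor Trem1 (0.963) and the chemokine Ccl9 (0.951). S1pr3, which belongs to the reactive astrocyte list, had 214 and 320 normalized read counts in PIA+IL-27, 840 and 262 in PIA, and 493 and 347 in Control. Like Serpina3n, it was highest in PIA 1 and next highest in Control 1. Nearest to the sum were Flnc (0.985), Tmco4 (0.982), Gpr31b (0.981), the signalling inhibitor Socs3 (0.980) and Fgr (0.974). Across the 6 libraries r was 0.965 between Serpina3f and Serpina3g, 0.951 between Serpina3g and Serpina3i, 0.254 between Serpina3g and Serpina3n, and 0.130 between Serpina3f and Serpina3n.

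**Figure D5:**
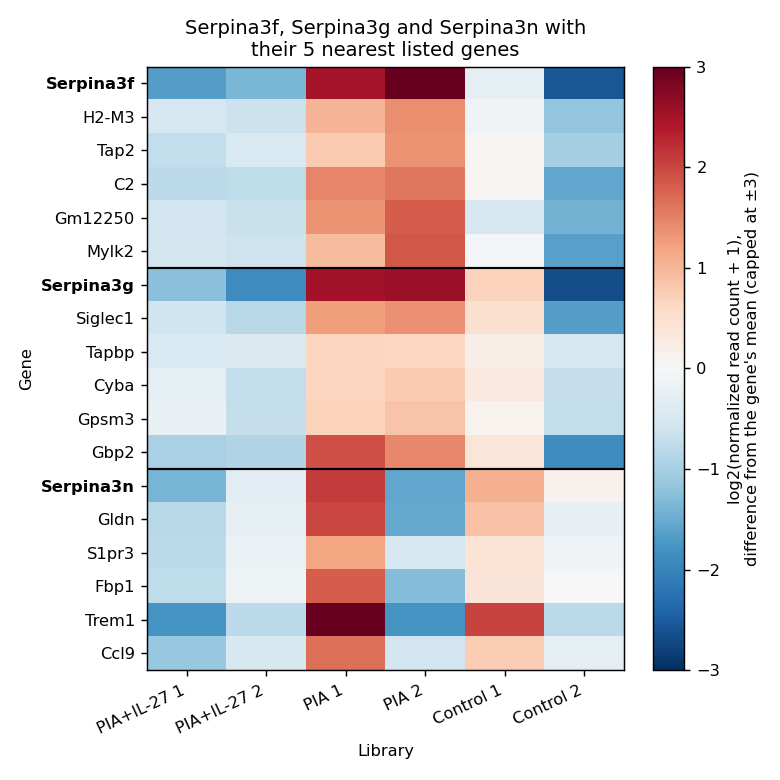
Rows are Serpina3f, Serpina3g and Serpina3n (bold), each above its 5 nearest listed genes, and columns are libraries. Colour gives log2(normalized read count + 1) as a difference from the mean of the gene, capped at 3 either way; both PIA libraries are high in the Serpina3f and Serpina3g blocks, and PIA 1 alone of the pair in the Serpina3n block.

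Serpina3n is usually counted among reactive astrocyte genes. Of 35 genes in the list, which leaves out the family, 20 were listed and tested. In PIA against Control 19 had a log2 fold change above 0 with a median of 1.53, against -0.68 over all genes tested; 0 passed. Of the 20 genes, 15 were higher in PIA 1 than in PIA 2, as Serpina3n was, and 5 were higher in PIA 2; over all listed genes 63.0% were higher in PIA 1. Lcn2, the iron-sequestering lipocalin, had 50.1 and 2.91 normalized read counts in PIA+IL-27, 1496 and 46.9 in PIA, and 214 and 1.90 in Control. The transglutaminase gene Tgm1 had 22.9 and 4.85 in PIA+IL-27, 221 and 22.9 in PIA, and 31.3 and 3.81 in Control. Both were highest in PIA 1. The GTPase gene Iigp1 had 27.1 and 53.4 in PIA+IL-27, 75.9 and 106 in PIA, and 13.7 and 13.3 in Control, and was highest in PIA 2. The filament gene Gfap, named after its values were seen, had 4066 and 4747 in PIA+IL-27, 17945 and 6035 in PIA, and 13757 and 5522 in Control. In PIA+IL-27 against PIA the list median was -1.63, against 1.17 over all genes tested. Of the 20 genes 3 passed and were lower, where 0.373% of all genes tested passed as lower. The 3 genes were Lcn2, the metalloreductase gene Steap4 and the chemokine gene Cxcl10 (adjusted p = 0.00117, 0.0067 and 0.0174, edgeR). As the lists were chosen with earlier results known, nothing is read from this count.

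Of 37 interferon gamma targets 31 were tested. Cxcl10, H2-D1, Iigp1, Gbp2 and Psmb8 are also in the reactive astrocyte list, so these lists are not separate. In PIA against Control all 31 had a log2 fold change above 0, as had 894 of all 3216 genes tested. Their median was 2.08, against -0.68 over all genes tested, and 0 passed. Set against PIA, PIA+IL-27 had 30 of the 31 below 0, as had 809 of all 3216 genes tested. Their median was -1.83, against 1.17 over all genes tested. Where 0.373% of all genes tested passed as lower, 2 of the targets did, Cxcl10 and the chemokine gene Ccl5. Against Control, 19 were above 0 in PIA+IL-27 and 12 below, with a median of 0.32, against 0.55 over all genes tested; Serpina3f and Serpina3g were below 0 there. Of the 32 listed targets, 13 were higher in PIA 1 and 19 in PIA 2, while 63.0% of all listed genes were higher in PIA 1. Nlrc5, the activator of class I genes, had 32.3 and 42.7 normalized read counts in PIA+IL-27, 90.3 and 440 in PIA, and 38.2 and 12.4 in Control. The GTPase genes Igtp and Tgtp2 had 287 and 709, and 74.0 and 149, in PIA. These 3 genes were higher in PIA 2, as Serpina3f was. Cxcl10 was higher in PIA 1, with 7.30 and 7.77 in PIA+IL-27, 238 and 124 in PIA, and 39.2 and 2.86 in Control.

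Signalling genes upstream of the family were less completely listed. Of 38 genes 18 were tested, 14 of them above 0 in PIA against Control with a median of 0.92, and 0 passed in any comparison. Irf1, a transcription factor induced by interferon gamma, had 149 and 113 normalized read counts in PIA+IL-27, 307 and 847 in PIA, and 198 and 84.7 in Control. Irf8, a transcription factor of myeloid cells, had 146 and 83.5 in PIA+IL-27, 187 and 429 in PIA, and 163 and 67.6 in Control. Both were highest in PIA 2, where Serpina3f and, by little, Serpina3g were highest. The inflammatory cytokine gene Il1b had 3.13 and 4.85 in PIA+IL-27, 72.1 and 7.64 in PIA, and 18.6 and 1.90 in Control. The cytokine gene Tnf had 4.17 and 3.88 in PIA+IL-27, 50 and 21.8 in PIA, and 11.8 and 0.95 in Control. Both were highest in PIA 1, where Serpina3i and Serpina3n were highest. For Tnf both PIA libraries lay above all others, as for Serpina3i, whereas Serpina3n was lowest in PIA 2. A link of these genes to single copies was not tested. Of the 19 listed genes, 15 were higher in PIA 1 than in PIA 2, against 63.0% of all listed genes.

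A list of 30 protease genes, drawn up as possible targets, was mostly absent from the table. As the table was selected on change, absence does not mean a low level. Of the 30 genes 9 were listed and 6 were tested. In PIA against Control 4 were above 0 and 2 below, with a median of 0.61, and 0 passed in any comparison. Mcpt4, a mast cell protease gene, was listed at 0 in PIA+IL-27 and PIA, against 17.6 and 10.5 normalized read counts in Control. The mast cell chymase gene Cma1 had 3.13 and 0 in PIA+IL-27, 1.92 and 4.36 in PIA, and 29.4 and 13.3 in Control. Gzma, a granule protease of cytotoxic lymphocytes, had 3.13 and 1.94 normalized read counts in PIA+IL-27, 24.0 and 9.82 in PIA, and 9.79 and 0.95 in Control. The lysosomal cathepsin gene Ctsh had 60.5 and 244 in PIA+IL-27, 406 and 516 in PIA, and 364 and 65.7 in Control. The mast cell genes were thus highest in Control libraries, and Gzma and Ctsh were highest in PIA libraries. Of the 16 glucocorticoid response genes 4 were tested, 3 of them above 0 in PIA against Control with a median of 0.65. In PIA+IL-27 against PIA, 0.373% of all genes tested passed as lower. Of the 4 genes 1 did, Lcn2, which is also in the reactive astrocyte list.

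Of 7 listed serpins outside the family 6 were tested, and 0 passed in any comparison. Their median log2 fold change was 0.32 in PIA against Control, with 4 above 0, and -1.27 in PIA+IL-27 against PIA, with 4 below 0; over all genes tested the medians were -0.68 and 1.17. Serping1, the complement C1 inhibitor, had 199 and 140 normalized read counts in PIA+IL-27, 694 and 352 in PIA, and 341 and 189 in Control. Serpini1, neuroserpin, was the most abundant, with 1929 and 3428 in PIA+IL-27, 1806 and 512 in PIA, and 912 and 2289 in Control. Serpina10 had 15.4 and 1.09 in PIA and was listed at 0 in the other libraries.

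Summed markers of leukocytes reached their highest level in a PIA library. The 14 listed neutrophil and monocyte markers of 18 had summed normalized read counts of 691 and 261 in PIA+IL-27, 3366 and 890 in PIA, and 1591 and 303 in Control, with PIA 1 and Control 1 highest, as for Serpina3n. The 7 listed T and NK cell markers of 16 summed to 7.77 to 19.8 in PIA+IL-27, 51.3 to 82.6 in PIA and 8.57 to 22.5 in Control. The 7 listed microglia markers of 15 summed to 1220 to 2234 in PIA+IL-27, 2598 to 3449 in PIA and 1196 to 2236 in Control, a sum held mostly by C1qa, C1qb and Itgam. The other 4 (P2ry12, Siglech, Trem2 and Gpr34) had log2 fold changes below 0 in PIA against Control and above 0 in PIA+IL-27 against PIA. P2ry12, a marker of resting microglia, had 258 and 184 in PIA+IL-27, 9.61 and 56.7 in PIA, and 14.7 and 232 in Control. Of 10 astrocyte markers 3 were listed, and they summed to 9983 to 11121 in PIA+IL-27, 3277 to 6096 in PIA and 4378 to 13070 in Control, so they were not highest in PIA. No listed marker of these lists was at 0 in every library. The transcripts of the members had a GC content of 49.1 to 51.9%, above 71.4 to 79.2% of the tested genes. The part of these markers in the members' differences was not tested. With a trend on GC content removed in each library, the log2 fold changes in PIA against Control were 4.40 for Serpina3f and 2.75 for Serpina3g.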

How the data were processed

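Members, gene lists and tests were chosen with earlier results of these data known. The deposited table gives, per the file headers, an expected read count per gene and library, values in TPM and FPKM, and a log2 fold change and Q value (an adjusted p-value) for each group comparison; RNA went to a commercial provider for library preparation and sequencing, per the labels' protocols. The deposited normalized read count (a signal) could be rebuilt by rounding each read count up and dividing by 1 factor per library (0.917 to 1.05; all values within 1e-06). FPKM values were not used further. Of the deposited expected counts, 11.3 to 13.3% were not whole. Aligner, counting tool, strand setting, build and the authors' test: not given in the sources used here. Library names in the headers matched the labels.

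After rounding, the expected counts went through the quasi-likelihood test of edgeR 4.0.16 (R 4.3.3), with all 6 libraries in 1 fit, the authors' factors, filterByExpr by group and Benjamini-Hochberg adjustment over all genes, threshold 0.05. Prior degrees of freedom were infinite, so the spread used for a gene was pooled over genes and was not set by its own libraries. The common biological coefficient of variation was 0.597. An SE is the log2 fold change divided by the square root of F. The sum was fitted with the 4 rows replaced by their total. The fit was tested on simulated data. Alternatives were factors by TMM or by median of ratios, a fit of unfiltered genes, a block on replicate number, a fit of the compared libraries alone, each library left out, DESeq2 1.42.0 and limma 3.58.1 on log2(TPM + 1) or log2(TPM + 0.1). Added after seeing the data were leaving out PIA 2 and PIA+IL-27 1 together, and removing a loess trend on GC content (span 0.5). Named genes were all members, the 5 nearest genes by Pearson's r to Serpina3f, Serpina3g and the sum, and up to 4 genes per list by smallest p in PIA against Control; Gfap, P2ry12, S1pr3 and the neighbours of Serpina3n were named after their values were seen. Sequences were taken from RefSeq (GRCm38.p6) and GENCODE M21 and aligned in Biopython 1.88.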

Additional observations from a re-analysis of the deposited data

How the results depend on the processing

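The log2 fold changes of Serpina3f, Serpina3g and Serpina3i kept their sign in all 16 alternatives in PIA against Control and in PIA+IL-27 against PIA. Serpina3n kept its sign in 13 of 16 and 15 of 16. In PIA against Control it ran from -2.23 to 1.44, and was -0.40 and -0.44 in limma with 1 and 0.1 added to TPM. Serpina3f ran from 2.83 to 5.92 and from -6.02 to -2.95, and Serpina3g from 1.88 to 5.36 and from -5.46 to -3.26. In PIA+IL-27 against PIA Serpina3f and Serpina3g each passed in 5 alternatives. Over the alternatives that kept 2 libraries per group, adjusted p ran from 0.00269 (DESeq2) to 0.587 (edgeR) for Serpina3f. For Serpina3g it ran from 0.0141 (DESeq2) to 0.587 (edgeR). In PIA against Control Serpina3f passed in 3. The summed log2 fold change ran over the libraries left out from -0.25 to 1.67 in PIA against Control, from -3.09 to -1.18 in PIA+IL-27 against PIA and from -1.89 to -0.76 in PIA+IL-27 against Control. With TMM and median-of-ratios factors it was -3.50 and -3.49 in PIA+IL-27 against PIA and -2.43 and -2.44 in PIA+IL-27 against Control; TMM moved the median of all genes from -0.68 to -0.00 in PIA against Control and from 1.17 to -0.04 in PIA+IL-27 against PIA.

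Over all genes, 7 passed in PIA against Control, 14 in PIA+IL-27 against PIA and 10 in PIA+IL-27 against Control. In the same order of comparisons, edgeR called 0, 0 and 0 with TMM factors (117, 591 and 118 at an unadjusted p under 0.05). It called 0, 0 and 0 with median-of-ratios factors (111, 579 and 110) and 0, 0 and 0 with the GC trend removed (120, 243 and 44). It called 9, 449 and 1 with only the libraries compared. DESeq2 called 2, 4 and 1; limma called 6, 10 and 2 with 1 added to TPM and 12, 14 and 5 with 0.1 added. Without PIA 2 and PIA+IL-27 1 together, the log2 fold changes in PIA+IL-27 against PIA were -4.01 for Serpina3f and -4.49 for Serpina3g. Leaving out a library leaves 1 in its group, so no count of genes passing is read from such fits. It is thus not shown that the calls hold without any 1 library. With replicate number as a block, edgeR called 3, 4 and 3, and the adjusted p in PIA+IL-27 against PIA was 0.111 for Serpina3f and 0.158 for Serpina3g. The deviations of same-numbered libraries correlated at 0.145, -0.261 and 0.061 across genes. Each group gives only a single difference, so these values cannot tell whether the numbers pair the libraries. With 2 libraries per group, Serpina3f in Control rested on 17.0 and 3 reads.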
